A study of Homo sapiens with 4 samples.

Results

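The genes described here carry cholesterol into, through and out of the cell, and were followed in KGN, a cell line established from a human granulosa cell tumour of the ovary. They are 32 genes chosen by name: 17 enzymes of cholesterol synthesis, 5 genes of sterol sensing, 4 of lipoprotein uptake and lysosomal release, 1 of storage and 5 of efflux and its control. Of these, 29 had a probe set annotated to that gene alone, out of 19775 genes on the array, and all 29 exceeded the intensity floor of 62.6 on at least 1 array, 28 of them on all 4. FDFT1, CYP51A1 and NR1H2 had no such probe set, so their expression was not analysed here.

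Each of 4 groups was 1 array. In siNC the cells received a control siRNA (10 nM), and in siYT siRNAs against YAP and TAZ (5 nM each), the co-activators that the Hippo pathway restrains. The medium was changed 48 h after transfection and left for 24 h either without an addition or with 0.5 mM 8Br-cAMP, an analogue of cyclic AMP that enters cells, giving siNC+8Br-cAMP and siYT+8Br-cAMP. Knockdown was transient and the labels name no replicate cultures, so differences are given as sizes with no replicate check.

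A granulosa cell needs cholesterol for its membranes and, once cyclic AMP signalling starts steroid synthesis, as a precursor of steroids. It can build cholesterol from acetyl-CoA, take it up from lipoproteins and free it in lysosomes, store it as esters, or export it. When sterols in the endoplasmic reticulum run low, SCAP carries the SREBP factors to the Golgi for cleavage and the synthesis genes are transcribed, while the INSIG proteins hold SCAP back when sterols are plentiful. The LXR receptors, which sense oxysterols, drive the efflux genes.

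Intensities are linear array signals, and values under the floor (the median of all values) were set to it before log2. A gene counts as higher or lower at 2-fold, a log2 difference of 1. Since no group has a replicate, the spread of a difference between probe sets of the same gene serves as the yardstick of error. In log2 units this SD came to 0.39 for siYT minus siNC and 0.37 for siNC+8Br-cAMP minus siNC, and 0.54 and 0.53 where siYT+8Br-cAMP entered. That array also had a higher 3' to 5' signal ratio for ACTB, 1.35 against 1.07 to 1.14 elsewhere. The median intensity was 56.9 to 66.3 per array. The siRNA targets were lower after knockdown, YAP1 by 3.80-fold and 3.38-fold and WWTR1, the TAZ gene, by 5.22-fold and 6.11-fold, without and with 8Br-cAMP. Of the granulosa markers FOXL2, INHA, CYP19A1, STAR, KRT18, NR5A1 and FSHR, the first 5 were above the floor on all arrays, while NR5A1 and FSHR were below it on all 4. In a bulk sample, fewer cells of a type and less RNA per cell cannot be told apart.

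Most synthesis enzymes were at their highest in untreated control cells, and most of them read lower there with 8Br-cAMP. Of 15 measured enzymes, 9 read highest in siNC and 0 read lowest there, while over all 14427 genes compared siNC was the highest array for 24.2% and the lowest for 27%. The lowest array was siNC+8Br-cAMP for 6 enzymes (20.2% of all genes), siYT for 4 (20.3%) and siYT+8Br-cAMP for 5 (32.6%), and siYT+8Br-cAMP was the highest for 4 (31%). With 8Br-cAMP and control siRNA, 13 of the 15 differed downward by some amount. Of the 13, MVK, SQLE and MVD differed by less than the yardstick SD of 0.37. At least 2-fold lower were 5 (ACAT2, HMGCS1, FDPS, LSS and TM7SF2). Those 5 are all the members that were lower among 29, where 5.22% of all genes were, and 0 members were at least 2-fold higher, where 4.34% of all genes were. The median log2 difference of the 15 enzymes was -0.73, against 0 for all genes. Without the probe sets whose suffix marks several transcripts, only 22 members keep a value and the enzymes' median was -0.16.

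**Figure D1:**
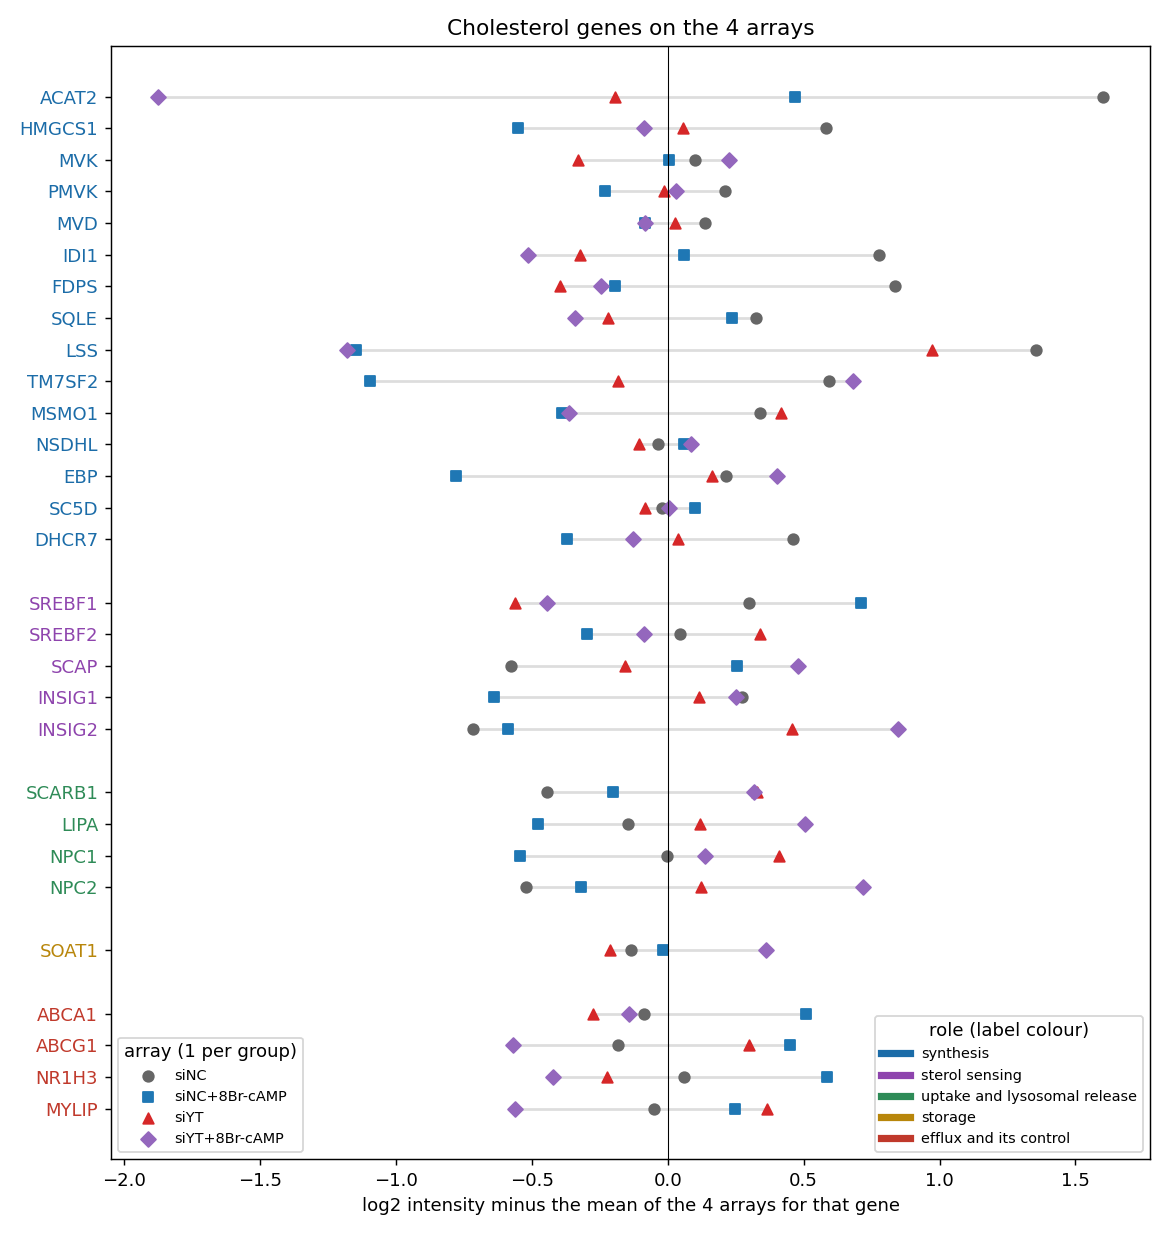
Log2 intensity of each of the 29 measured members on the 4 arrays, with the floor applied, as the difference from that gene's mean over the arrays (x axis), 1 point per array and no error bar since each group is 1 array. Grey circles (siNC) lie farthest right for 9 of the 15 synthesis enzymes, blue squares (siNC+8Br-cAMP) lie farthest right for ABCA1, ABCG1 and NR1H3, and the triangle or diamond of a knockdown array lies farthest right for the 4 uptake genes.

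The promoters of these enzymes share a sequence feature that the choice of genes did not use. Among the 27 members with an entry in the RefSeq promoter table (GRCh38.p14), the 250 bases before each annotated start were searched on both strands. These 27 include CYP51A1 and NR1H2, which have no expression value here. The NF-Y box CCAAT, bound by a factor that is known to act beside SREBP, was present upstream of 12 of 14 synthesis genes (85.7%), where 37.0% of the 27305 genes in the table have it. It occurred at least 2 times in 1 promoter of 9 of the 14, against 11.5% of all genes. Of the 13 other members, 7 (53.8%) had it. The promoters below are those of LSS, TM7SF2 and FDPS, which were at least 2-fold lower with 8Br-cAMP in control cells, of MSMO1, which has 4 boxes, and of INSIG1, a regulator that these enzymes share. LSS and TM7SF2 have 1 box each, while MVK and NSDHL, whose readings varied little between arrays, have more boxes than MSMO1. A relation between boxes and readings was not tested. Capitals mark CCAAT or its reverse complement, and each line runs 5′ to 3′ on the strand of the gene and ends at the base before the start.

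LSS, chr21:46228775-46229024, minus strand: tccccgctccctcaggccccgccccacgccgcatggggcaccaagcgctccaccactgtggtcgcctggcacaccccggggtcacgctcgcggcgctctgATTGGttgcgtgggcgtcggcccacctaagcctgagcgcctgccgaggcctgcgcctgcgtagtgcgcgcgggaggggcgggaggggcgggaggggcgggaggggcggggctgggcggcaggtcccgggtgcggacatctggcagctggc

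TM7SF2, chr11:65111622-65111871, plus strand: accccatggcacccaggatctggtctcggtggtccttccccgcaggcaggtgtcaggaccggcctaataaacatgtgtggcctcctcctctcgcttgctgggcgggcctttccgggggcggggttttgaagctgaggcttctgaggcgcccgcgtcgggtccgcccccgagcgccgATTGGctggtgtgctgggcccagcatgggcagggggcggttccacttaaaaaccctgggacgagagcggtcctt

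FDPS, chr1:155308616-155308865, plus strand: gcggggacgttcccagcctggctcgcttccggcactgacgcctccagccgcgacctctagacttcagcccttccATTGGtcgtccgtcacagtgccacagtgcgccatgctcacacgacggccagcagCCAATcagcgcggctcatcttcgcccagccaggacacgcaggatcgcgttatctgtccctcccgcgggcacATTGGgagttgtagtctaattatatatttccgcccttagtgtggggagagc

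MSMO1, chr4:165327419-165327668, plus strand: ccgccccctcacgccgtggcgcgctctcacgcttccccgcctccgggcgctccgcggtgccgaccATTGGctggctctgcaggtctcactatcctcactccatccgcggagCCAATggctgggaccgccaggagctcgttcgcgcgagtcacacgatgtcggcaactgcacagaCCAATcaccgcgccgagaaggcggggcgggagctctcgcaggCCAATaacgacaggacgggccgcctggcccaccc

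INSIG1, chr7:155297628-155297877, plus strand: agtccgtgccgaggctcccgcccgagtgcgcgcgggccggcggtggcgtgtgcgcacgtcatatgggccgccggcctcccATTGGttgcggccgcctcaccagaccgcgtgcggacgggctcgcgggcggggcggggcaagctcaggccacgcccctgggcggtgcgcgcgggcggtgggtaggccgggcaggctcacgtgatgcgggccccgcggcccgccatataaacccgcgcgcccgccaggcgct

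The classical sterol regulatory element was found upstream of 1 member, SREBF2, and of 0.0439% of all genes in the table. SREBF2 encodes the SREBP that chiefly drives cholesterol synthesis, and the element, in capitals here, lies 134 to 125 bases before the start.

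SREBF2, chr22:41832855-41833104, plus strand: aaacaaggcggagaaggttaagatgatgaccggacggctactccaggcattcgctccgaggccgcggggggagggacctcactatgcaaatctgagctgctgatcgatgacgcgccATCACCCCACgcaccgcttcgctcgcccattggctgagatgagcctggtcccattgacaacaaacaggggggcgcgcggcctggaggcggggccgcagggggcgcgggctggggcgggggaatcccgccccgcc

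Its looser form TCACNCCAC, which overlaps the longer one, was likewise found only at SREBF2 among the members, with 1.09% of all genes holding it. The full cyclic AMP response element TGACGTCA and the LXR element (a direct repeat of the receptor half-site) were found at 0 of the 27 members, against 2.03% and 0.0183% of all genes. The core TGACG, contained in the full element, was upstream of 6 of 14 synthesis genes and 5 of 13 others, against 24.9% of all genes. The TEAD motif GGAATG was upstream of 2 of 14 (PMVK and EBP) and 2 of 13 (NPC2 and NR1H3), against 14.3%. These matches are letters in a window, and binding was not measured. Elements that vary from the strings given were not counted, so the synthesis promoters cannot be said to lack a sterol regulatory element.

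**Figure D2:**
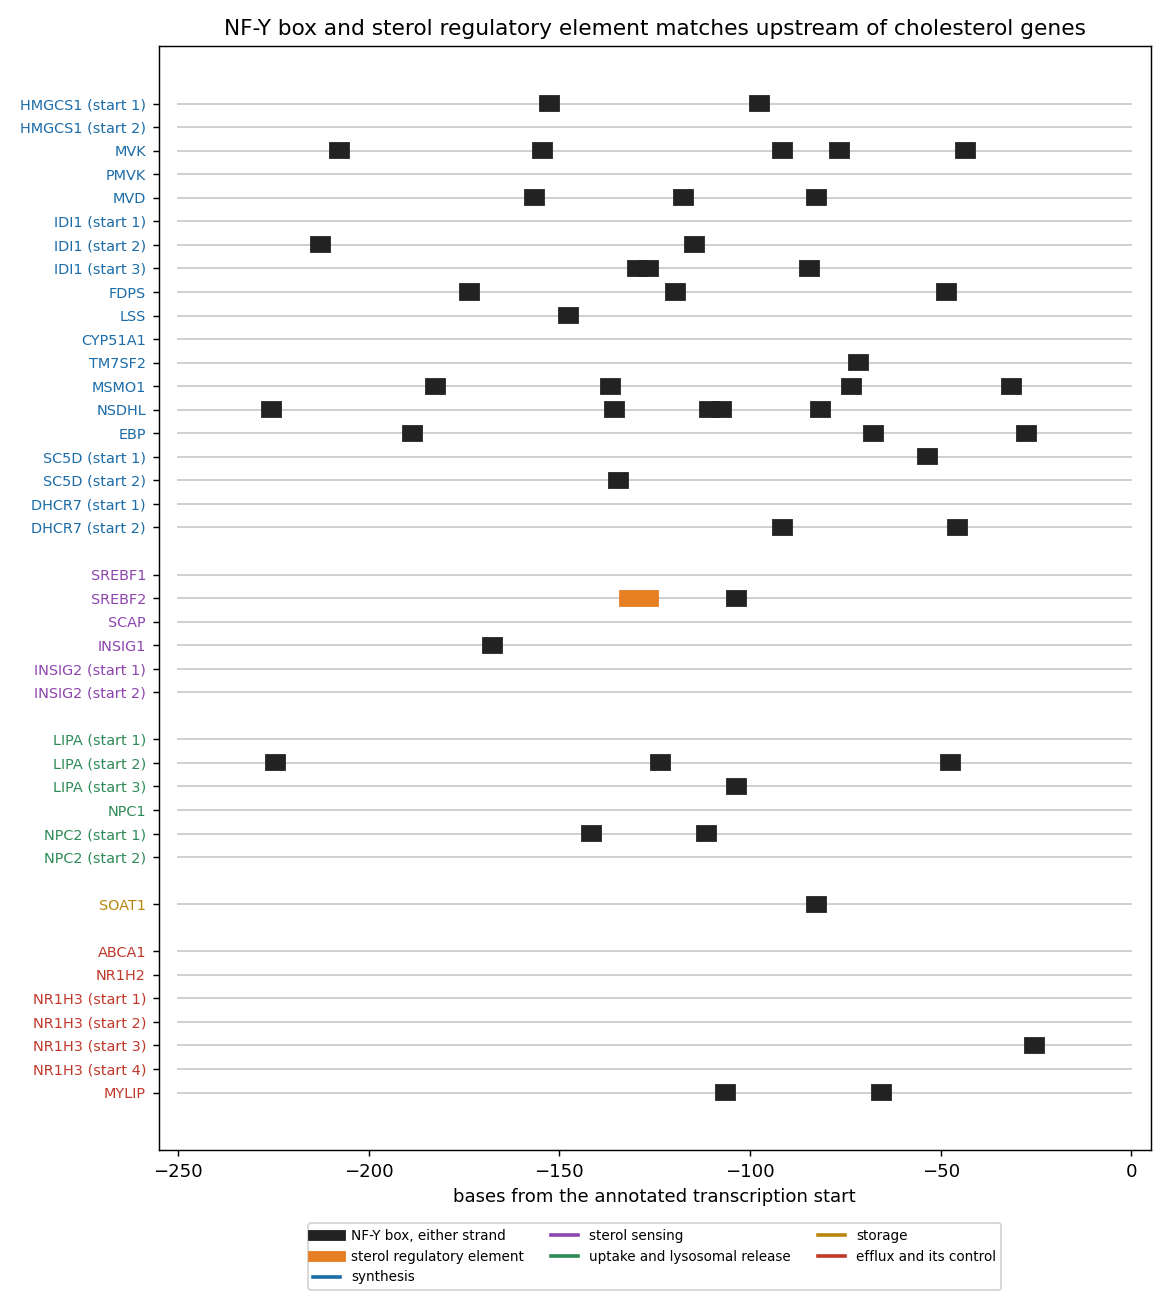
Position of each NF-Y box match (black) and of the sterol regulatory element (orange) in the 250 bases before every annotated start of the 27 members with a promoter entry, in bases from the start (x axis). Members with several starts have several lines, numbered along the gene, whose windows can overlap. Of the 14 synthesis genes, 12 carry at least 1 box, and the orange mark, a match to the searched string, stands at SREBF2 alone.

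LSS, lanosterol synthase, folds the squalene-derived chain into the first sterol. It read 3534 in siNC and 2714 in siYT, but only 624 and 611 on the siNC+8Br-cAMP and siYT+8Br-cAMP arrays. The arrays thus separated by 8Br-cAMP and hardly by knockdown: LSS was 5.66-fold lower with 8Br-cAMP in control cells and 4.44-fold lower after knockdown. Knockdown differences were -0.38 and -0.03 on the log2 scale, each below the yardstick. A further probe set above the floor on all arrays read 217, 101, 171 and 87.5 (control siRNA without and with 8Br-cAMP, then knockdown without and with it, the order used from here on), with smaller 8Br-cAMP differences of -1.11 and -0.97. Under the 8 alternative settings that give LSS a value, its difference stayed past 2-fold, between -2.50 and -1.64 in control cells. In an additive limma fit over all genes, which takes departure from additivity as error with 1 residual degree of freedom, the 8Br-cAMP term for LSS was -2.33 with a standard error of 0.27 and a Benjamini-Hochberg adjusted p of 0.0564, so it missed 0.05. The fit called 0 of 29 members for 8Br-cAMP, where it called 0.0277% of all genes lower and 0.111% higher.

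ACAT2, the cytosolic thiolase that joins acetyl-CoA units at the entry to the pathway, read lower with each treatment. Its readings were 2208, 1006, 635 and 198. The combined treatment thus gave the lowest array and either one alone a reading in between. ACAT2 was 3.48-fold lower after knockdown without and 5.07-fold lower with 8Br-cAMP, and with 8Br-cAMP it was 2.20-fold lower in control cells and 3.21-fold lower after knockdown. No other of the 29 members passed 2-fold downward in both knockdown comparisons, where 2.81% of all genes did. No other member was called by the additive limma fit for knockdown (ACAT2 log2 -2.07, standard error 0.29, adjusted p = 0.0411), while 1.12% of all genes were called lower. Its single probe set carries the suffix for several transcripts.

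FDPS, which makes farnesyl diphosphate at the branch towards sterols and protein prenylation, was high on 1 array only. It read 5495 in siNC against 2690, 2339 and 2595 on the other 3. Knockdown and 8Br-cAMP each came with a lower reading from the untreated state, 2.35-fold and 2.04-fold, and neither moved it further in the presence of the other (log2 -0.05 and 0.15). IDI1, the isomerase one step earlier, read 4983, 3025, 2321 and 2034 and was 2.15-fold lower after knockdown without 8Br-cAMP and 1.49-fold lower with it. A second bright IDI1 probe set read 3770, 2635, 1790 and 1315, in the same order of arrays. Both carry a suffix for cross-hybridising sequences, and dimmer IDI1 probe sets at 232 and 69.2 in siNC gave 0.15 and -0.11.

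HMGCS1, the synthase that forms HMG-CoA early in the pathway, read 933, 425, 647 and 586, with a 2.20-fold lower reading in siNC+8Br-cAMP than in siNC. With the mean of probe sets that difference was -0.92, short of 2-fold. Its second probe set read 468, 286, 356 and 179. The probe sets went the same way in both comparisons without the siYT+8Br-cAMP array (knockdown -0.53 and -0.40, 8Br-cAMP -1.14 and -0.71), and opposite ways for knockdown with 8Br-cAMP (0.46 and -0.68). SQLE, squalene epoxidase, read 3050, 2869, 2093 and 1922, and its knockdown differences of -0.54 and -0.58 exceeded the yardstick SD of 0.39 and 0.54 narrowly. Its further probe sets gave -0.85 and -0.44 without 8Br-cAMP and -0.04 and -1.06 with it, so that the sign was the same in each.

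TM7SF2, a sterol reductase of the later pathway, was the member whose differences turned most between conditions. It read 290, 89.8, 169 and 308 and so was lowest in siNC+8Br-cAMP, near the floor. The siYT reading was also within 4 times the floor, and the single probe set carries the suffix for several transcripts. The 8Br-cAMP difference was -1.69 in control cells and 0.86 after knockdown, and the knockdown difference -0.78 without and 1.78 with 8Br-cAMP, a difference of differences of 2.55. EBP, a sterol isomerase, had a like pattern at 1214, 609, 1172 and 1383, lowest in siNC+8Br-cAMP, and was 2.27-fold higher after knockdown with 8Br-cAMP. The second EBP probe set read 613, 525, 630 and 739 and gave a log2 difference of 0.49 for the same comparison, short of 2-fold.

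DHCR7, the reductase of the final step in one branch of the pathway, read 1376, 773, 1026 and 914, and its second probe set 862, 401, 558 and 870. In both the lowest array was siNC+8Br-cAMP, with 8Br-cAMP differences of -0.83 and -1.10 in control cells. MSMO1, a methylsterol oxidase, read 9200, 5549, 9712 and 5652. Like LSS it separated by 8Br-cAMP (-0.73 and -0.78, lower in both, above the yardstick SD) and not by knockdown (0.08 and 0.03), yet it stayed under 2-fold. The mevalonate kinases MVK and PMVK and the later enzymes NSDHL and SC5D varied least among enzymes above the floor on all arrays. Their highest array exceeded the lowest by between 1.14-fold (SC5D) and 1.47-fold (MVK). MVD, the decarboxylase between PMVK and IDI1, read 72.9, 54.0, 67.5 and 33.6, at or near the floor, and gives no usable difference.

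**Figure D3:**
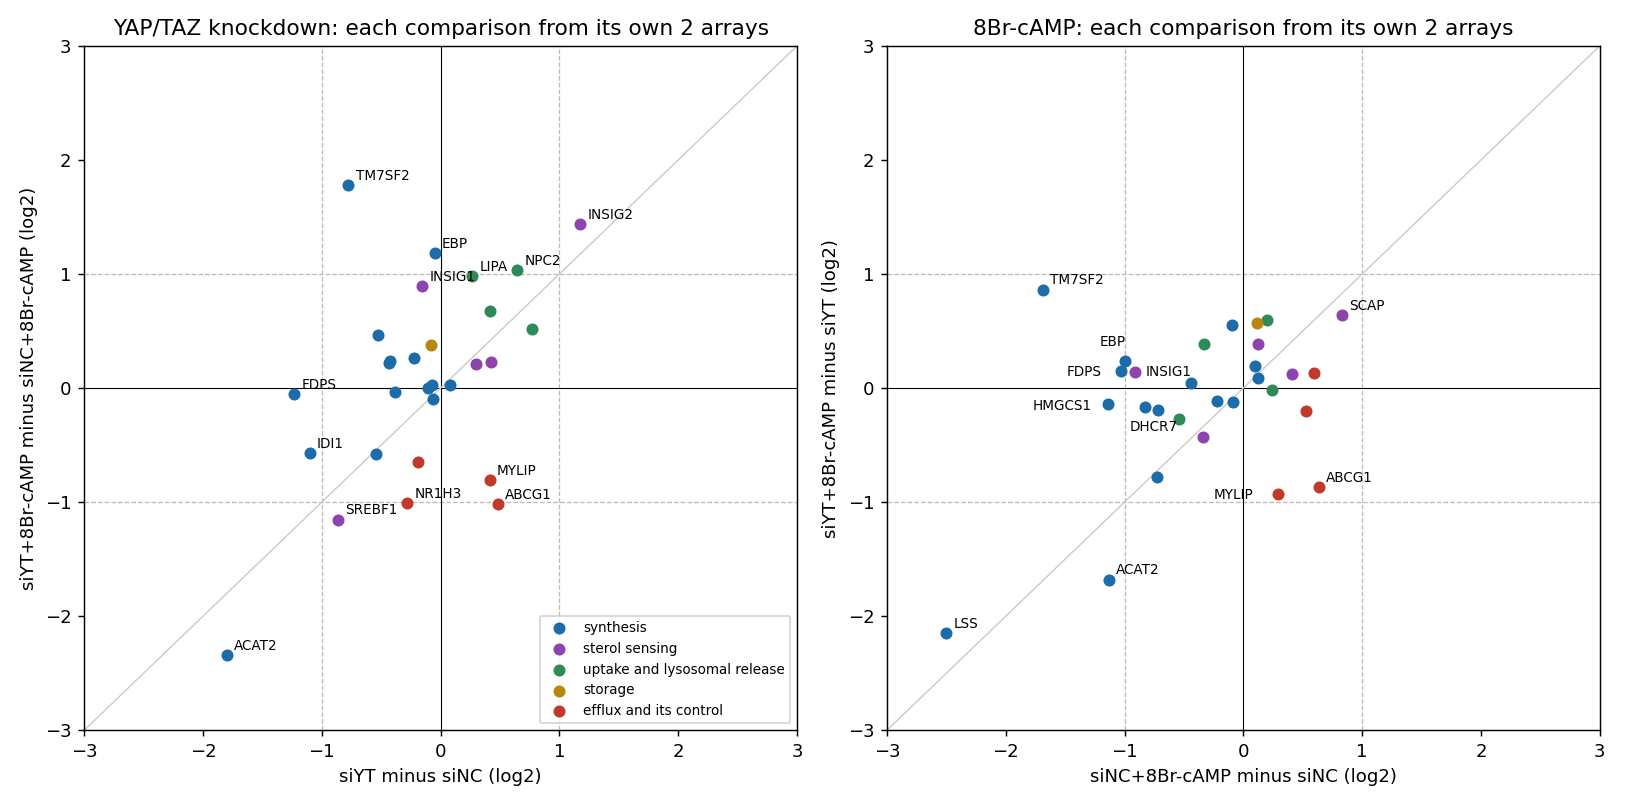
Log2 differences of the 29 measured members, coloured by role, for knockdown without (x) against with 8Br-cAMP (y) on the left, and for 8Br-cAMP with control siRNA (x) against after knockdown (y) on the right; dashed lines mark 2-fold, the grey diagonal marks equal differences, and each axis uses a separate pair of arrays. ACAT2 is low in both panels, LSS only on the right, INSIG2 is high on the left, and the uptake genes (green) lie above 0 on both knockdown axes.

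Knockdown alone, siYT against siNC, came with a lower reading for 14 of 15 synthesis enzymes by some amount and a median of -0.42. Of the 14, LSS, PMVK, NSDHL, SC5D, EBP and MVD differed by less than the yardstick SD of 0.39, and MVD was near the floor. The share of all genes that read lower by some amount is not given here. At 2-fold, 3 of the 29 members were lower (ACAT2, IDI1 and FDPS), where 6.05% of all genes were, and 1 was higher, INSIG2, where 7.3% were. With 8Br-cAMP the enzymes' median knockdown difference was 0.03, with 8 above and 6 below 0. There 4 of the 29 members were at least 2-fold higher (TM7SF2, EBP, INSIG2 and NPC2) and 4 lower (ACAT2, SREBF1, ABCG1 and NR1H3), against 6.74% and 9.48% of all genes. The difference of differences had a median of 0.49 over the 15 enzymes, with 11 above 0 and FDPS, TM7SF2 and EBP past 2-fold. Over all genes its median was -0.03, and 5.39% were at least 2-fold above 0.

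After knockdown, 8Br-cAMP left the synthesis enzymes with a median of -0.11, and 2 members were at least 2-fold lower (ACAT2 and LSS) and 0 higher, where 9.88% and 5% of all genes were. ACAT2 and LSS were therefore the members lower in both 8Br-cAMP comparisons, 2 of 29, where 2.08% of all genes were, and 0 members were higher in both, where 1.46% were.

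Among the sterol-sensing genes, INSIG2 separated the arrays by knockdown. Its readings were 1299 and 1419 with control siRNA and 2931 and 3837 with the YAP and TAZ siRNAs, each without and with 8Br-cAMP. Both knockdown arrays lay above both control arrays. That was 2.26-fold and 2.70-fold higher. No other member passed 2-fold upward in both, where 2.38% of all genes did. INSIG2 has 1 probe set, above the floor on all arrays, so alternatives of floor, filter and probe set choice returned the same values. With the pseudocount of 32 or either normalization between arrays it stayed past 2-fold. Those values were 1.16 to 1.20 without and 1.42 to 1.46 with 8Br-cAMP. The additive limma fit gave log2 1.31 with a standard error of 0.27 and an adjusted p of 0.0848, above 0.05.

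INSIG1, the paralog that SREBP itself induces, gave readings that depended on the probe set. The representative read 3333, 1773, 2989 and 3290, the second 4661, 1050, 3108 and 1362, and the third 933, 634, 569 and 226. All 3 were lower with 8Br-cAMP in control cells, by -0.91, -2.15 and -0.56. On the siYT+8Br-cAMP array they parted, and the knockdown difference with 8Br-cAMP was 0.89, 0.37 and -1.49. INSIG1 past 2-fold in the difference of differences (1.05) therefore rests on its representative probe set.

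SREBF1, whose products favour fatty acid genes and which is itself an LXR target, read 727, 967, 400 and 435. Both knockdown arrays were below both control arrays, by 1.82-fold and 2.22-fold. With the mean of probe sets the larger difference was -0.75, short of 2-fold. SREBF2 was steadier at 524, 414, 643 and 479, with knockdown differences of 0.30 and 0.21, both below the yardstick SD. Its further probe sets read 269, 247, 400 and 358, and 188, 150, 149 and 148, and differed in sign after knockdown. SCAP, the escort of both SREBPs, read 735, 1308, 984 and 1531. Both 8Br-cAMP arrays were above both others, by 1.78-fold in control cells and 1.56-fold after knockdown, past the yardstick SD and short of 2-fold.

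The highest array was siYT for SCARB1 and NPC1, as for 24.1% of all genes, and siYT+8Br-cAMP for LIPA and NPC2, as for 31%. All 4 genes of uptake and lysosomal release read higher after knockdown in both comparisons, with medians of 0.53 and 0.83, against 0 for all genes. At 2-fold, 0 were higher without 8Br-cAMP and 1 with it, where 7.3% and 6.74% of all genes were. LIPA without 8Br-cAMP (0.27) and SCARB1 with it (0.52) were below the yardstick SD. NPC2, the soluble lysosomal protein that hands cholesterol to NPC1, read 20158, 23199, 31481 and 47538, which was 1.56-fold and 2.05-fold higher after knockdown. Under cyclic loess and quantile normalization between arrays the larger one fell short of 2-fold, with a lowest value of 0.88. LIPA, the lysosomal acid lipase that frees cholesterol from esters, read 10077, 8023, 12126 and 15843, or 1.20-fold and 1.97-fold higher. NPC1, the membrane exporter, read 3036, 2091, 4046 and 3345, or 1.33-fold and 1.60-fold higher, and its second probe set gave 0.44 and 0.52.

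SCARB1, the receptor for high-density lipoprotein that supplies steroidogenic cells with cholesterol esters, read 1874 and 2214 in control cells and 3201 and 3172 after knockdown. Both knockdown arrays lay above both controls, 1.71-fold without and 1.43-fold with 8Br-cAMP. Its second probe set read 732, 832, 1003 and 1352 with both knockdown arrays again above both controls, though here siYT+8Br-cAMP was the highest. Another, dimmer one read 122, 73.8, 118 and 154, with no knockdown difference beyond the yardstick SD without 8Br-cAMP (-0.05) and one of 1.06 with it. With 8Br-cAMP the 4 genes had medians of -0.06 in control cells and 0.19 after knockdown, with 2 above and 2 below 0 in each.

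Storage was represented by SOAT1, which esterifies cholesterol for lipid droplets. It read 1914, 2077, 1814 and 2698, with knockdown differences of -0.08 and 0.38. Its further probe sets disagreed. One read 719, 534, 486 and 347, and the third 240, 360, 589 and 624. Their knockdown differences without 8Br-cAMP were -0.56 and 1.29, so no direction can be given for SOAT1.

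The 4 measured genes of efflux and its control were at their lowest, or close to it, when knockdown and 8Br-cAMP were combined. Of the 4, 3 read highest in siNC+8Br-cAMP, as 20.8% of all genes did, and 3 lowest in siYT+8Br-cAMP, as 32.6% did. In control cells 8Br-cAMP came with a higher reading of all 4 (median 0.56), and knockdown with 8Br-cAMP with a lower reading of all 4 (median -0.91). With the mean of probe sets the first median was 0.17, and the MYLIP probe set brightest by linear intensity differed by -0.26 there, downward. ABCA1, the exporter that loads cholesterol onto apolipoprotein A-I, read 3253, 4917, 2856 and 3130 and was highest in siNC+8Br-cAMP, 1.51-fold above siNC. A second ABCA1 probe set read 1652, 1791, 1781 and 510, near level on 3 arrays and low on siYT+8Br-cAMP, so the knockdown difference with 8Br-cAMP was -0.65 by one and -1.81 by the other.

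NR1H3, the gene for LXR alpha, read 224, 322, 184 and 160, highest in siNC+8Br-cAMP and 2.01-fold lower in siYT+8Br-cAMP. That difference was short of 2-fold with a pseudocount of 32 and with either normalization between arrays, the smallest being -0.88, and 3 of the readings lie within 4 times the floor. ABCG1, the exporter to high-density lipoprotein, read 129, 200, 180 and 98.8, and its 2.03-fold difference between the same arrays lies within 4 times the floor. It too was short of 2-fold with that pseudocount, with cyclic loess and with the mean of probe sets (-0.26). MYLIP, a ubiquitin ligase that LXR induces and that exports no cholesterol itself, read 359, 440, 478 and 252 by its representative. All 4 MYLIP probe sets above the floor on all arrays were lower in siYT+8Br-cAMP than in siNC+8Br-cAMP, by between -0.81 and -1.55. Without 8Br-cAMP their knockdown differences ran from -0.21 to 0.41, with mixed signs. In the difference of differences ABCG1 and MYLIP were at least 2-fold below 0, 2 of 29 members, where 9.56% of all genes were. With the mean of probe sets both were short of it (-0.60 and -0.72).

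**Figure D4:**
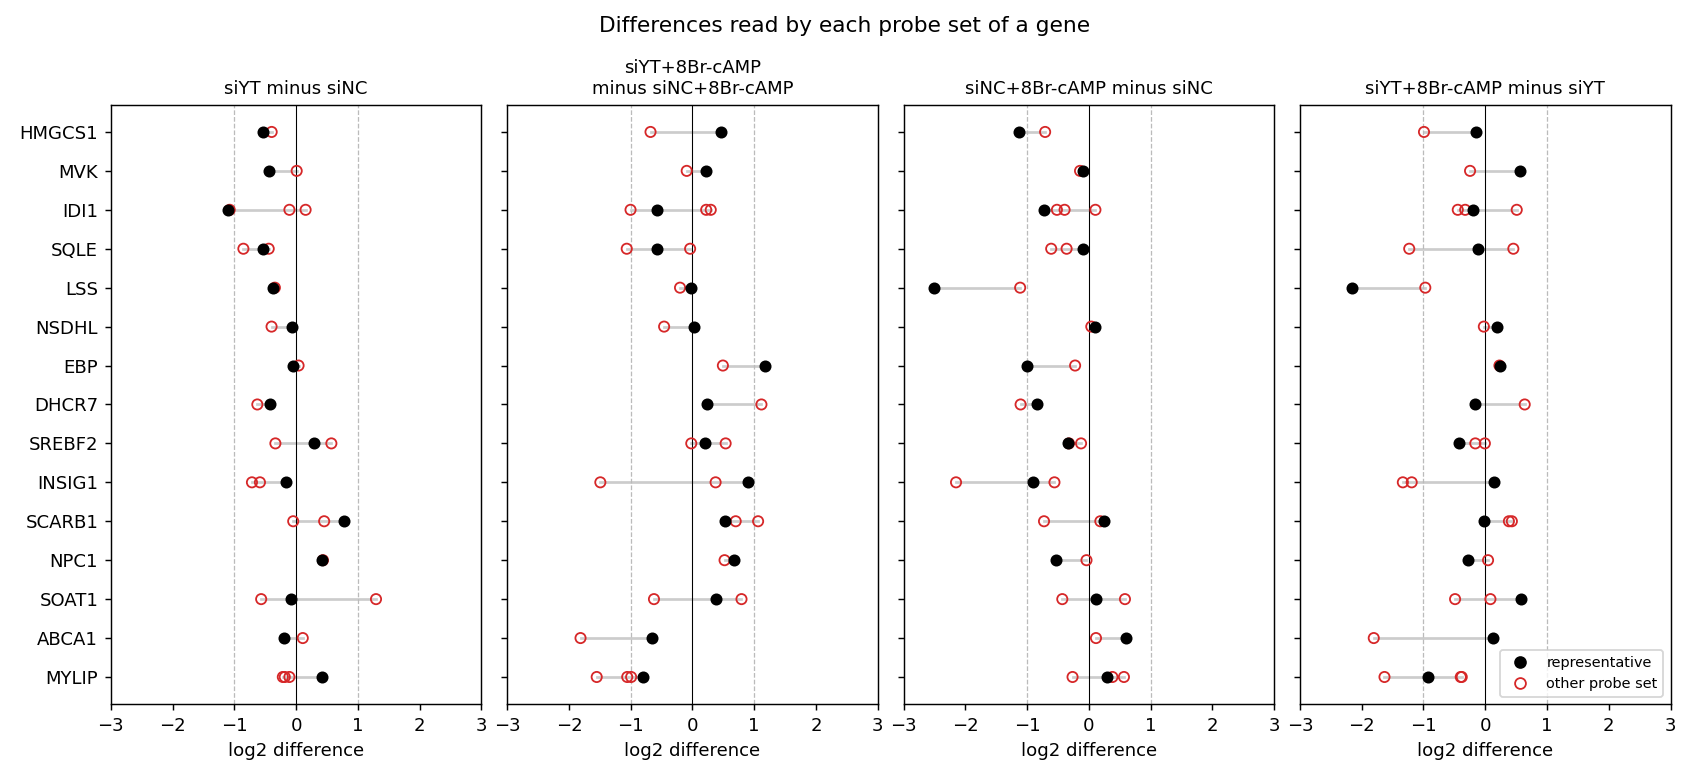
Log2 difference read by every probe set above the floor on all arrays, for the 15 members with at least 2 of them; filled points are the representative, open red circles the others, and dashed lines mark 2-fold. The spread within a gene is wider in the panels that use siYT+8Br-cAMP, where it exceeds a log2 difference of 1 for 6 of 15 genes, against 2 and 3 in the other panels.

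Probe sets of the same gene thus agreed less on the siYT+8Br-cAMP array. The median range within a gene was 0.41 for knockdown without and 0.74 with 8Br-cAMP, and 0.52 and 0.85 for 8Br-cAMP in control cells and after knockdown. The array's higher ratio of 3' to 5' signal moves with this, and its part in the members' values was not tested.

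Set side by side, the role medians differed in both comparisons against siNC. For knockdown without 8Br-cAMP the medians were -0.42 for synthesis, 0.30 for sensing, 0.53 for uptake and lysosomal release, -0.08 for SOAT1 and 0.11 for efflux. For 8Br-cAMP in control cells they were -0.73, 0.13, -0.06, 0.12 and 0.56 in that order. The medians of all genes were 0 in both. For knockdown with 8Br-cAMP the role medians in that order were 0.03, 0.23, 0.83, 0.38 and -0.91. For 8Br-cAMP after knockdown they were -0.11, 0.14, 0.19, 0.57 and -0.53. In control cells the 8Br-cAMP median of synthesis was -0.16 without probe sets of several transcripts. That of efflux was 0.17 with the mean of probe sets. SOAT1 values are from its representative, and its probe sets disagreed. Both comparisons against siNC share that array. Since the roles hold 1 to 15 genes and each comparison 1 pair of arrays, the differences between roles were not tested.

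Further genes of lipid supply, from lists of general knowledge, extend the picture. Of 12 measured genes of SREBP-linked fatty acid and lipid supply, 4 were at least 2-fold lower after knockdown without 8Br-cAMP (FASN, ELOVL6, ME1 and TMEM97) and 2 with it (FASN and ELOVL6), with 1 higher there, SCD. Of all genes 6.05% were lower without 8Br-cAMP, and 9.48% were lower and 6.74% higher with it. FASN, fatty acid synthase, read 578, 364, 275 and 166, lower by 2.10-fold and 2.19-fold. ELOVL6, a fatty acid elongase, read 1032, 894, 467 and 215. SCD, the desaturase that makes oleate, went the other way at 12270, 9852, 24038 and 21739, or 1.96-fold and 2.21-fold higher. STARD4, which moves cholesterol between membranes and is an SREBP target, read 1569, 540, 1325 and 313, following 8Br-cAMP as LSS did.

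Of 9 other isoprenoid and sterol genes, LBR and COQ2 passed 2-fold downward with knockdown in both, where 2.81% of all genes did. LBR, an inner nuclear membrane protein that also has the sterol reductase activity of TM7SF2, read 6273, 5365, 2913 and 1079, or 2.15-fold and 4.97-fold lower. COQ2, of ubiquinone synthesis, read 1338, 1327, 420 and 149. FAXDC2 read 1118, 461, 1623 and 1703, lowest in siNC+8Br-cAMP like TM7SF2 and EBP, and GGPS1 read 1.83-fold higher on each 8Br-cAMP array than on its untreated counterpart (log2 0.87 and 0.87) and differed by -0.46 and -0.45 after knockdown.

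In the list of 6 SREBP-processing genes, 0 differed by 2-fold after knockdown without 8Br-cAMP, where 7.3% of all genes were higher and 6.05% lower, and 2 were higher with it, where 6.74% were. These were the Golgi protease MBTPS1 (1.63-fold and 2.40-fold) and RNF139 (1.87-fold and 2.19-fold). MBTPS2, the second protease, read 4269, 6249, 4037 and 9748, higher on both 8Br-cAMP arrays, while UBXN4 differed by 0.05 and 0.62 after knockdown. Of 6 lipoprotein receptor genes, SORL1 was at least 2-fold lower after knockdown in both (2.28-fold and 2.49-fold), where 2.81% of all genes were. CD36, a scavenger receptor, was the 1 gene past 2-fold upward without 8Br-cAMP (log2 1.07, where 7.3% of all genes were higher), with readings of 55.8, 114, 131 and 210 that start below the floor. LRP1 (1.93-fold and 2.17-fold) and LRPAP1 (1.92-fold and 1.82-fold) read higher. LRP8 read 500.2, 536, 266 and 359, lower on both knockdown arrays and short of 2-fold.

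Among 13 genes of sterol transport and esters, PLIN2, the coat protein of lipid droplets, read 1164 and 1511 in control cells and 5442 and 5540 after knockdown, or 4.67-fold and 3.67-fold higher. CES1, a carboxylesterase, was below the floor in both control groups and read 335 and 330 after knockdown, log2 2.42 and 2.40 above the floor value. They were the 2 of 13 past 2-fold upward in both, where 2.38% of all genes were. CAV1, caveolin, was 3.02-fold and 3.04-fold lower with 8Br-cAMP, GRAMD1B read 499, 995, 495 and 1750, and OSBPL9 differed by 0.54 and 1.03 after knockdown. In the list of 9 measured LXR-linked genes, 0 were past 2-fold after knockdown without 8Br-cAMP, where 7.3% of all genes were higher and 6.05% lower. With it 1 was higher, ABCA7 (2.06-fold), and 1 lower, SREBF1, also a member, near the 6.74% and 9.48% of all genes. SMPDL3A was 2.21-fold and 2.84-fold lower with 8Br-cAMP, and LPCAT3 read 343, 595, 308 and 324, highest in siNC+8Br-cAMP as were ABCA1 and NR1H3. Of 3 oxysterol genes above the floor on any array, CYP27A1 was past 2-fold in all 4 comparisons, in both directions. It read 25.6, 166, 158 and 4.92, above the floor on only 2 arrays and within 4 times the floor there. No direction can therefore be given for CYP27A1.

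The 5 measured genes of steroid synthesis, called outlets here, read higher with 8Br-cAMP in both comparisons. In each, 4 were at least 2-fold higher, where 4.34% of all genes were in control cells and 5% after knockdown. FDX1 was short of 2-fold (log2 0.73 and 0.81). Knockdown without 8Br-cAMP also left 3 of the 5 at least 2-fold higher, where 7.3% of all genes were. These were CYP11A1 (log2 3.70), CYP19A1 (5.29) and HSD3B2 (1.52). STAR and FDX1 differed by -0.07 and 0.10 there. STAR read 1284, 37308, 1227 and 33335, CYP11A1 81.4, 1171, 1056 and 4518, and FDX1, its electron donor, 2737, 4529, 2934 and 5127. CYP19A1 read 184, 6558, 7213 and 24784, and HSD3B2 was below the floor in siNC and read 364, 179 and 507 on the others. So the arrays with the highest STAR readings were those with the lowest LSS and MSMO1 readings, a description of 4 arrays. CYP19A1 did not separate the arrays in this way, since it read higher in siYT than in siNC+8Br-cAMP. With 8Br-cAMP, 13 of the 15 synthesis enzymes read lower by some amount in control cells, but after knockdown 8 read lower and 7 higher. A relation between outlets and synthesis enzymes was not tested.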

How the data were processed

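Total RNA from KGN cells was hybridised to human expression arrays, 1 array per group. The authors deposited 1 linear intensity per probe set and array. The submitters' processing notes name RMA and Affymetrix Expression Console, whereas the deposited intensities have a 2% trimmed mean of 500.1 on each array, so their background step and summary are unknown here. Of 54675 probe sets, 41097 carried 1 gene symbol, 1801 several and 11777 none in the platform annotation; only the first were used. Values under 62.6 were set to it, log2 was taken, and a gene's probe set of highest mean log2 value represented it. Named genes are all members, the siRNA targets, the steroid outlets and, from each further list, up to 4 genes above the floor on all arrays with the largest mean difference for knockdown or 8Br-cAMP. Genes that make up a count of 5 or fewer (ME1, TMEM97, CD36, CES1, CYP27A1) were named after their values were seen. The members and lists were chosen with earlier results of these data known. An additive fit of knockdown and 8Br-cAMP used limma 3.58.1 in R 4.3.3, with Benjamini-Hochberg adjustment; other steps used Python 3.11.15. The scripts were tested on simulated data. Alternatives changed the floor, filter, pseudocount, probe set choice, normalization between arrays and size rule. A comparison of protein sequences was planned and is not used here. With 1 array per group, the number of arrays limits the precision.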

Additional observations from a re-analysis of the deposited data

Results flagged for a closer look

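TM7SF2 differed in opposite directions under the same contrast. For knockdown it was -0.78 without and 1.78 with 8Br-cAMP. Its 8Br-cAMP difference was -1.69 in control cells and 0.86 after knockdown. ABCG1 did so as well, with a knockdown difference of 0.48 without and -1.02 with 8Br-cAMP, and an 8Br-cAMP difference of 0.63 in control cells and -0.87 after knockdown. MYLIP had a knockdown difference of 0.41 without and -0.81 with 8Br-cAMP by its representative probe set. Its further probe sets above the floor on all arrays gave -0.21, -0.11 and -0.18 without and -0.99, -1.06 and -1.55 with 8Br-cAMP. The opposite signs for MYLIP therefore rest on the representative alone. All are log2 values from 1 pair of arrays, and the differences between conditions were not tested.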

How the results depend on the processing

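Of 25 member differences past 2-fold, 14 stayed past it under all alternatives that give them a value, and 25 kept their direction. Those 14 belong to LSS and to ACAT2, FDPS, TM7SF2 and INSIG2. The last 4 genes have 1 probe set each, so alternatives of probe set choice returned the same value or none. The differences of IDI1, EBP, SREBF1, ABCG1, HMGCS1, INSIG1 and MYLIP, with several probe sets, all fell short of 2-fold with the mean of probe sets. With 1.5-fold as the size rule, members higher and lower numbered 3 and 5 for knockdown without 8Br-cAMP, 7 higher for knockdown with it, 3 and 10 for 8Br-cAMP in control cells, 3 and 5 after knockdown, and 8 above 0 in the difference of differences. Without probe sets of several transcripts, which leaves 22 members, the counts were 1 lower for knockdown without 8Br-cAMP, 2 higher with it, and 1 above and 1 below 0 in the difference of differences, and the synthesis median for 8Br-cAMP in control cells was -0.16. Members lower after knockdown with 8Br-cAMP numbered 2 with a pseudocount of 32, 2 with a filter at the 75th percentile (25 members left), 2 with the mean of probe sets and 2 with cyclic loess. Members below 0 in the difference of differences numbered 1 with that filter and 0 with the mean of probe sets. Cyclic loess and quantile normalization each gave 1 member higher with 8Br-cAMP after knockdown. The additive limma fit called 0 members higher for knockdown and 0 lower for 8Br-cAMP. Choosing the probe set by its mean linear intensity was added after seeing the data. The cause of these changes was not tested. No paired analysis was possible because each group has 1 array and the labels carry no replicate numbers, and for the same reason no replicate could be left out. Signal near the floor limits MVD, TM7SF2, ABCG1 and NR1H3, and among the further genes CYP27A1.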
